A study of Mus musculus with 24 samples.

Results

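CD8+ T cells sorted from B16F10-OVA tumours 1 day after an antibody to PD-1 were compared with those sorted after an isotype control antibody, across all genes. B16F10-OVA is a melanoma line of the mouse that was made to express ovalbumin, a model antigen. The comparison took the bulk libraries that the labels call CD8 and either anti-PD-1 or isotype control, 8 of the 24 bulk libraries of the study, with 4 libraries in each group. Both groups of mice carried the same tumours and received 200 micrograms of antibody, and each library was made from fewer than 400 sorted cells by Smart-seq2, a protocol that amplifies polyadenylated RNA along the whole transcript. The labels give no strain, age, genotype, tumour stage or antibody clone, and do not state whether each library had a mouse of its own, so every p-value measures the spread between libraries, which may be partly technical. The other 16 libraries were CD8 cells after an antibody to JAML and CD4+FOXP3+ regulatory T (Treg) cells after each of the 3 antibodies.

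PD-1, encoded by Pdcd1, is an inhibitory receptor that appears on activated T cells and stays on chronically stimulated ones. When its ligands bind, it recruits tyrosine phosphatases that damp signalling from the T-cell receptor and from CD28, and antibodies that block it are used to restore T-cell function in melanoma. Signals of the T-cell receptor normally raise glycolysis, Myc, ribosome production and the synthesis of cytokines and granule proteins, so genes of these programmes were examined beside interferon-response, inhibitory-receptor and memory genes.

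Among the pathway lists examined, the type I interferon response had the largest share of members higher in all 4 anti-PD-1 libraries. Its genes are switched on by a complex that contains Stat2 and Irf9 at interferon-stimulated response elements. Promoters of 4 of its members are shown here to place the element. Each of the 4 held a match and had higher levels in all 4 anti-PD-1 libraries than in any isotype library. Irf7, Lgals3bp and Irf9, also higher in all 4 libraries, had no match in their windows. Capitals mark every match, on either strand, to the core of the element, GAAA and GAAA with any 2 bases between them. Each window runs from 250 bases before to 50 bases after the gene's start, 5′ to 3′ on the gene's strand, from RefSeq on GRCm38.p6.
Trim30a, chr7:104465144-104465443, minus strand: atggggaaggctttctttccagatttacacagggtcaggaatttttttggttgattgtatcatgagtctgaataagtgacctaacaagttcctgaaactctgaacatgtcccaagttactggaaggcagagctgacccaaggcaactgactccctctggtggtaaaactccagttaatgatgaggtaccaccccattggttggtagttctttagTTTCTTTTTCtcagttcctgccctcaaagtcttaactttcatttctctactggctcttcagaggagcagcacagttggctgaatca
Ddx58, chr4:40239776-40240075, minus strand: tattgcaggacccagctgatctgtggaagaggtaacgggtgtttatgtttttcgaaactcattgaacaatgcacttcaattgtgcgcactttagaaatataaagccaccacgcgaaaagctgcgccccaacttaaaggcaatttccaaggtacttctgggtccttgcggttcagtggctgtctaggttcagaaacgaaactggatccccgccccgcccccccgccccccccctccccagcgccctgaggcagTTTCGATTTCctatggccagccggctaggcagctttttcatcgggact
Ifit1, chr19:34640639-34640938, plus strand: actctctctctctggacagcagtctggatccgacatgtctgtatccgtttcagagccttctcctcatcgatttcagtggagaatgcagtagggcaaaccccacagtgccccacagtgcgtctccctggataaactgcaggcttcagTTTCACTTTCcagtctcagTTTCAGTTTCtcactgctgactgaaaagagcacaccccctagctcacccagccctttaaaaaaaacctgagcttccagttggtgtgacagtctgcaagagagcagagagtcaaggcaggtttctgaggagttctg
Bst2, chr8:71537423-71537722, minus strand: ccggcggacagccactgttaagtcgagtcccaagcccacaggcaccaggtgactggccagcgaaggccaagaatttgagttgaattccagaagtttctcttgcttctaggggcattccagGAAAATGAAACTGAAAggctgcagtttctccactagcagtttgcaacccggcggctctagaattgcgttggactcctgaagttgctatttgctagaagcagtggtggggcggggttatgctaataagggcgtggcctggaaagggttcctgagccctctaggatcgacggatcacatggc
Ifit1 and Bst2 held 2 matches each, which overlap in Bst2, and Trim30a and Ddx58 held 1 each. This core occurred on either strand in 3.99% of the 27025 genes with a promoter window and in 23 of the 45 interferon-list members with one. Since 45 of the 58 tested members is under 80%, the share over the list is void as a property of the whole list, and the windows describe these genes only.

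The 8 CD8 libraries compared held between 11727419 and 18490887 counts, and 12648 genes passed the filter on low counts, which asked for about 10 counts in 4 or more libraries. Levels are given as CPM, counts relative to the TMM-normalised library size, in the order of libraries 1 to 4. The sorted population expressed its defining genes: Cd8a lay between 1452 and 1729 CPM after anti-PD-1 and between 1431 and 1788 CPM after isotype, and Cd4 and Foxp3 were at or near 0 in all 8 libraries. Anti-PD-1 libraries had more genes with a count, 14841 ± 394 against 14095 ± 210 in isotype libraries (SD, n = 4 each; exact permutation p = 0.0286, the smallest that 4 against 4 can give, 0.0856 after Benjamini-Hochberg adjustment over 6 library measures). Anti-PD-1 libraries were also deeper on average, at 16884500 ± 1360000 counts against 14297700 ± 2390000 (exact permutation p = 0.171). The part of depth in the number of genes with a count was not tested. Mitochondrially encoded genes took 2.31 ± 0.797% of counts after anti-PD-1 and 3.21 ± 0.449% after isotype (exact permutation p = 0.114, adjusted p = 0.137).

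Anti-PD-1 libraries 2 and 4 stood apart from the other 6. In library 2 the median gene of the top GC quintile was 0.36 above the isotype mean on the log2 scale, and so was that of the quintile with the longest transcripts, and in library 4 these medians were 0.16 and 0.22. In anti-PD-1 libraries 1 and 3 the same 4 medians lay between -0.040 and 0.056, within or close to the range of isotype libraries. Libraries 2 and 4 also had the lowest shares of ribosomal protein transcripts, 5.32% and 6.97%, against 9.53% and 9.35% in libraries 1 and 3 and 9.37% to 10.5% in isotype libraries. With transcript length and GC content as offsets in the fit, an alternative chosen after seeing the data, the median log2 fold change was 0.73 over the type I interferon list, against 0.81 without offsets. For the glycolysis list the values with and without offsets were 0.32 and 0.44, and for the ribosomal protein list -0.42 and -0.43. Where the main-fit median of a list is given below and moves by more than 1.5 times without these libraries, both values are given. Lists described below without a median moved too. The effector cytokine median was -0.023, or -0.38 without these libraries, and that of effector and exhaustion factors 0.18, or 0.064. The amino acid list was at 0.25, or 0.12, and the hypoxia list at 0.31, or 0.17.

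**Figure D1:**
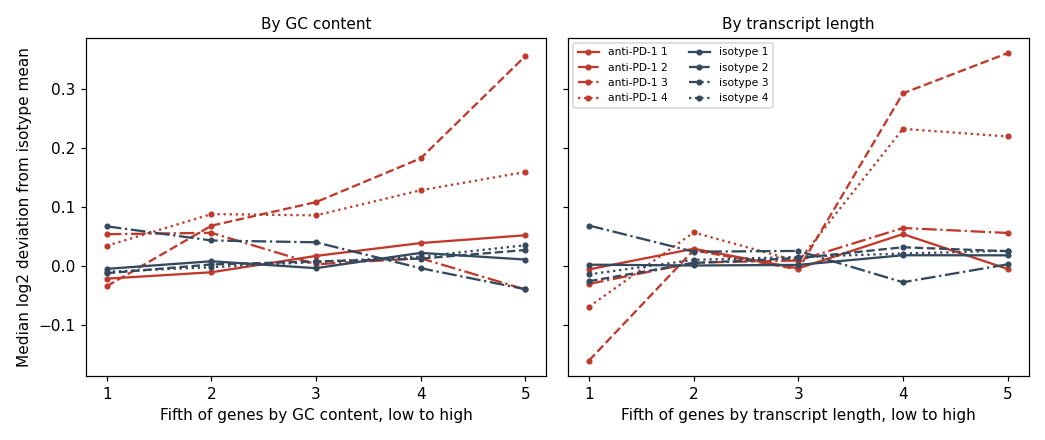
Median log2 deviation of each library from the mean of the isotype libraries (vertical axis), for genes of at least 5 CPM split into quintiles by GC content (left panel) and by transcript length (right panel), low to high. Red lines are anti-PD-1 libraries and blue lines isotype libraries; anti-PD-1 library 2 climbs to 0.36 in the top quintile of both panels and library 4 to 0.16 and 0.22, while the other 6 stay near 0.

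No gene passed an adjusted p of 0.05 in edgeR's quasi-likelihood test (0% of 12648 genes called; smallest adjusted p = 0.831), and limma voom also called 0%. Anti-JAML libraries 2 and 4 share in the estimate of the spread, and without them edgeR still called 0 genes, with a smallest adjusted p of 0.218. In the main fit, edgeR gave 514 genes higher after anti-PD-1 at an unadjusted p under 0.05 (4.06% of those tested) and 196 lower (1.55%). DESeq2 on the same genes called 15 higher (0.119% of 12588) and 7 lower (0.0556%). Without replicate statistics, 482 genes (3.81%) were higher in all 4 anti-PD-1 libraries than in any isotype library, and 412 (3.26%) were lower in all 4. Individual genes below are therefore levels whose difference did not survive correction in the main test, and each list is read against these background shares.

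Pdcd1, the gene of the receptor that the antibody binds, did not separate the groups. It stood at 786, 1425, 589 and 1128 CPM after anti-PD-1, against 828, 962, 685 and 689 CPM after isotype. The groups overlapped, libraries 2 and 4 were the highest, and the log2 fold change of 0.31 ± 0.31 (SE) became -0.20 without those libraries.

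The smallest p-values among higher genes belonged to a transcription factor, a pore-forming protein and several interferon-response genes. Nfil3, a leucine-zipper repressor known from natural killer cell development and the circadian clock (chr13:52967209-52981073, minus strand, mm10), stood at 74.8, 94.9, 76.0 and 78.9 CPM after anti-PD-1, against 36.2, 40.2, 34.7 and 39.7 CPM after isotype. Every anti-PD-1 library was far above the isotype range, with little spread inside either group (log2 fold change 1.11 ± 0.21; edgeR adjusted p = 0.831, DESeq2 adjusted p = 0.000636). Prf1, which encodes perforin, the pore-forming protein of cytotoxic granules (chr10:61297833-61304680, plus strand), was at 1191, 2643, 649 and 1537 CPM after anti-PD-1, against 575, 478, 328 and 404 CPM after isotype. Here the anti-PD-1 libraries spread widely and libraries 2 and 4 were the highest; the log2 fold change was 1.75 ± 0.36 (DESeq2 adjusted p = 0.000958) with all libraries and 1.04 without these libraries.

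Other genes with small p-values had varied roles. Daxx, a histone H3.3 chaperone, was at 43.7, 62.9, 39.9 and 44.7 CPM after anti-PD-1, against 14.1, 17.1, 22.8 and 17.7 CPM after isotype (log2 fold change 1.41 ± 0.30; DESeq2 adjusted p = 0.0153). Cwc22, a spliceosome factor that also takes part in loading the exon junction complex, was at 32.9, 51.8, 31.8 and 30.6 CPM after anti-PD-1, against 9.82, 15.9, 8.27 and 17.4 CPM after isotype (DESeq2 adjusted p = 0.0153). The groups of both genes were clear of each other. Ptpn6, which encodes the phosphatase SHP-1, one of those linked to inhibitory receptors, was at 241, 439, 155 and 429 CPM after anti-PD-1, against 144, 123, 98.99 and 116 CPM after isotype. Its log2 fold change of 1.39 ± 0.33 (DESeq2 adjusted p = 0.0375) was 0.72 without libraries 2 and 4. Ubash3b, another phosphatase that restrains T-cell receptor signalling, was at 155, 279, 124 and 161 CPM after anti-PD-1, against 97.0, 90.2, 102 and 101 CPM after isotype. Rprd1b, a regulator of RNA polymerase II, Abcf1, a translation factor, and Yars, the tyrosyl-tRNA synthetase, were likewise higher in all 4 anti-PD-1 libraries, with log2 fold changes of 1.05 ± 0.27, 1.00 ± 0.26 and 0.89 ± 0.22 (edgeR adjusted p = 0.831 for each). Without libraries 2 and 4 the log2 fold changes were 0.56 for Abcf1, 0.52 for Yars and 0.52 for Ubash3b.

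Jaml, the gene of an adhesion receptor of lymphocytes and myeloid cells, had the largest fold among the genes expressed in every library that DESeq2 called higher. It stood at 24.4, 44.2, 54.0 and 62.2 CPM after anti-PD-1, against 7.58, 7.31, 20.8 and 5.97 CPM after isotype (chr9:45079183-45108534, plus strand). Isotype library 3 was well above the other isotype libraries and came closest to anti-PD-1 library 1 (log2 fold change 2.15 ± 0.54; DESeq2 adjusted p = 0.0394). On the authors' TPM, which scale for transcript length, Jaml averaged 36.4 after anti-PD-1 and 7.07 after isotype.

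Some of the calls were genes silent in a group. Muc4 had 287 counts over the anti-PD-1 libraries and none over the isotype libraries, at least 78.0-fold higher against a floor of 3 counts over the isotype group. Slc15a2, a peptide transporter, had 103 counts against none and was at least 28.0-fold higher. Zscan10 had none after anti-PD-1 and 116 counts after isotype, at least 47.4-fold lower. All 3 were low genes, at no more than 6.72 CPM (Muc4, anti-PD-1 library 2), and such bounds cover counting error only.

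Among the lower genes with the smallest p-values, Cd7, an immunoglobulin-family receptor of T and natural killer cells, was at 41.3, 31.1, 67.9 and 16.5 CPM after anti-PD-1, against 166, 148, 79.0 and 90.0 CPM after isotype (log2 fold change -1.62 ± 0.38; edgeR adjusted p = 0.831, DESeq2 adjusted p = 0.0227). Cd82, a tetraspanin, was at 284, 335, 334 and 326 CPM after anti-PD-1, against 474, 418, 524 and 538 CPM after isotype. Gmfg, which remodels branched actin, was at 206, 173, 221 and 163 CPM after anti-PD-1, against 384, 328, 337 and 242 CPM after isotype. In all 3 genes every anti-PD-1 library lay below every isotype library. The log2 fold changes of Cd82 (-0.61 ± 0.16) and Gmfg (-0.76 ± 0.20) kept their sign in every alternative. Leaving out libraries could hardly turn the sign where the groups do not overlap.

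Clk1, a kinase that phosphorylates splicing factors, was at 137, 107, 168 and 146 CPM after anti-PD-1, against 208, 215, 198 and 242 CPM after isotype. Mxd4, an antagonist of Myc at their shared partner Max, was at 7.25, 9.02, 19.2 and 13.3 CPM after anti-PD-1, against 25.1, 37.2, 30.9 and 25.7 CPM after isotype (log2 fold change -1.28 ± 0.33; DESeq2 adjusted p = 0.0664). Both were lower in all 4 libraries. Ypel5, Lrrc8a (a subunit of the volume-regulated anion channel), Snapc5 (a factor for small nuclear RNA genes) and Zfp931 were also lower in all 4, with log2 fold changes of -0.66 ± 0.18, -1.10 ± 0.32, -0.62 ± 0.19 and -1.21 ± 0.36.

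A pair of lower genes split the isotype group itself. Xlr3b, an X-linked lymphocyte-regulated gene, was at 4.59, 1.21, 2.22 and 3.35 CPM after anti-PD-1, against 121, 98.4, 9.31 and 7.71 CPM after isotype (DESeq2 adjusted p = 0.00102). Trav8n-2, a variable segment of the T-cell receptor alpha chain, was at 0.068, 0, 0.72 and 1.88 CPM after anti-PD-1, against 164, 123, 2.08 and 2.47 CPM after isotype (DESeq2 adjusted p = 0.0492). For both, isotype libraries 1 and 2 carried nearly all of the difference. Trbv19, a beta-chain segment, was at 16.7, 4.14, 22.2 and 25.9 CPM after anti-PD-1, against 17.4, 25.5, 122 and 165 CPM after isotype, with libraries 3 and 4 the high ones and the groups overlapping. Alpha segments of one family share sequence, so counts of a single segment are uncertain.

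Type I interferon-response genes were higher after anti-PD-1 as a body. Of 59 listed genes 58 were tested, 54 had a positive log2 fold change (93.1%, against 53.0% of all genes), and 23 (39.7%) were higher in all 4 anti-PD-1 libraries than in any isotype library, against 3.81% of all genes. None was lower in all 4. The median log2 fold change was 0.81, against 0.036 over all genes tested, and DESeq2 called 3 members. Without anti-PD-1 libraries 2 and 4 the median was 0.71, and 28 members (48.3%) lay above all isotype libraries in both remaining ones, against 7.89% of all genes. In pooled cells a higher share of responding cells and more RNA per cell cannot be told apart.

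**Figure D2:**
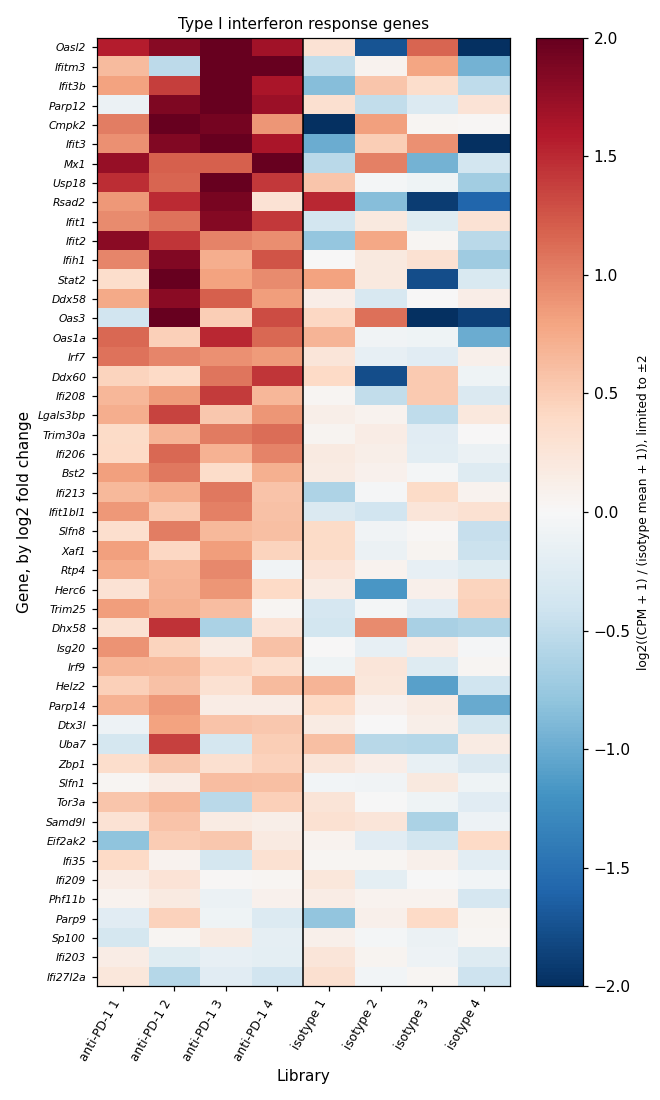
Level of 49 type I interferon-response genes (rows, by log2 fold change) in each library (columns, anti-PD-1 left and isotype right), as log2 of CPM plus 1 over the isotype mean plus 1, limited to ±2. Red is above and blue below the isotype mean; the upper rows are red in all 4 anti-PD-1 columns and mixed in the isotype columns, and the lowest rows show no difference.

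Irf7 and Usp18 had the smallest p-values of the list. Irf7, which drives the transcription of interferon alpha genes (chr7:141262706-141266481, minus strand), was at 116, 108, 103 and 99.3 CPM after anti-PD-1, against 64.4, 48.5, 46.4 and 58.3 CPM after isotype (log2 fold change 0.97 ± 0.20; DESeq2 adjusted p = 0.0191). Usp18, the protease that removes ISG15 and restrains the receptor, was at 56.3, 45.0, 87.7 and 53.7 CPM after anti-PD-1, against 29.0, 19.0, 18.4 and 11.6 CPM after isotype (log2 fold change 1.64 ± 0.36; DESeq2 adjusted p = 0.0223). For Irf7 the gap between the groups was larger than the spread inside either group. For Usp18 the groups did not overlap, but the gap was smaller than the spread inside either group. Irf9, which binds the DNA in the complex named above, was at 115, 113, 97.0 and 90.4 CPM after anti-PD-1, against 67.7, 85.4, 60.1 and 73.9 CPM after isotype, with no overlap. Its partner Stat2 overlapped between the groups (log2 fold change 1.28 ± 0.59), and without anti-PD-1 libraries 2 and 4 its log2 fold change was 0.64.

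The sensors of viral RNA followed the same order of groups. Ddx58, which encodes RIG-I, was at 34.6, 72.6, 47.2 and 36.4 CPM after anti-PD-1, against 22.04, 15.9, 20.3 and 22.06 CPM after isotype. Ifih1, which encodes MDA5, was at 30.3, 56.2, 25.3 and 36.8 CPM after anti-PD-1, against 14.9, 17.2, 18.7 and 8.68 CPM after isotype. The groups of both genes did not overlap (log2 fold changes 1.25 ± 0.35 and 1.32 ± 0.50; edgeR adjusted p = 0.856 and 0.865). Zbp1, a sensor of Z-form nucleic acid, was closer, at 91.2, 104, 89.4 and 98.9 CPM after anti-PD-1 and 84.5, 78.8, 64.5 and 58.5 CPM after isotype.

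Several antiviral effectors were apart between the groups as well. Ifit1, whose promoter is shown above, was at 32.9, 36.4, 61.8 and 45.6 CPM after anti-PD-1, against 12.7, 19.1, 13.9 and 20.5 CPM after isotype. Ifit3 was at 37.1, 71.4, 97.9 and 61.7 CPM after anti-PD-1, against 9.19, 27.3, 37.0 and 3.19 CPM after isotype; Ifit proteins bind viral RNA and block its translation. For Ifit1 the groups were well apart, while for Ifit3 their edges nearly met, at 37.1 and 37.0. Bst2, the tetherin that holds budding virus at the membrane, was at 81.4, 95.5, 59.2 and 75.8 CPM after anti-PD-1, against 51.1, 48.8, 44.6 and 38.1 CPM after isotype. Trim30a, an interferon-inducible ubiquitin ligase, was at 54.5, 67.2, 86.0 and 90.7 CPM after anti-PD-1, against 43.0, 45.7, 35.1 and 41.6 CPM after isotype (log2 fold change 0.85 ± 0.20; edgeR adjusted p = 0.831, DESeq2 adjusted p = 0.0561). Ifit2, Ifit1bl1, Ifi206, Isg20, Xaf1, Oasl2 and Lgals3bp were also higher in all 4 anti-PD-1 libraries, with log2 fold changes between 0.56 (Isg20) and 2.26 ± 1.39 (Oasl2). Lgals3bp, a secreted galectin-3 ligand, stood at 266, 410, 233 and 296 CPM after anti-PD-1, against 175, 168, 112 and 185 CPM after isotype (DESeq2 adjusted p = 0.0375).

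Not every interferon-response gene followed. Rsad2, which encodes viperin, was at 5.75, 9.42, 12.8 and 3.53 CPM after anti-PD-1, against 9.55, 1.05, 0 and 0.24 CPM after isotype, so isotype library 1 overlapped. Ifi204 had 240 counts after anti-PD-1 and none after isotype, at least 65.2-fold higher against 3 counts over the isotype group, but library 4 carried most of them, and this family has close copies among which reads may be split. Dendritic cells and macrophages also express these genes, and the part of such cells in the result was not tested. Of 12 dendritic-cell markers 8 were tested, 2 with a positive and 6 with a negative log2 fold change, and the list summed to 101 to 431 CPM after anti-PD-1 and 305 to 1204 CPM after isotype. Of 13 macrophage markers 8 were tested, 3 positive and 5 negative, and the list summed to 182 to 351 CPM after anti-PD-1 and 213 to 452 CPM after isotype. Cd74 and Ctss, the most abundant of these markers, carried much of the sums. The positive macrophage markers were Lyz2, Fcgr3 and Cd14. Fcgr3, an Fc receptor, averaged 4.89 ± 3.95 CPM after anti-PD-1 and 0.51 ± 1.02 CPM after isotype, and Cd14 averaged 3.04 ± 2.06 CPM after anti-PD-1 and 1.40 ± 1.16 CPM after isotype (SD, n = 4 each). Of the dendritic-cell markers, Flt3, Clec9a and Siglech were at 0 in all 8 libraries, but others were present. Xcr1 averaged 17.8 ± 8.18 CPM after anti-PD-1 and 14.5 ± 7.58 CPM after isotype. Ccr7 averaged 73.8 ± 63.5 CPM after anti-PD-1 and 81.9 ± 42.0 CPM after isotype, and H2-Ab1 44.7 ± 25.5 and 97.1 ± 76.7 CPM.

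Of 35 tested interferon gamma-response genes, 29 had a positive log2 fold change, 7 (20%) were higher in all 4 anti-PD-1 libraries and 2 (5.71%) lower in all 4, with a median of 0.53. Most of the higher members were guanosine triphosphatases that attack the vacuoles of intracellular pathogens. Igtp was at 218, 310, 251 and 280 CPM after anti-PD-1, against 149, 180, 182 and 143 CPM after isotype (log2 fold change 0.70 ± 0.19). Gbp6 was at 43.4, 101, 39.4 and 55.1 CPM after anti-PD-1, against 22.5, 32.1, 28.6 and 12.9 CPM after isotype, and Irgm1 and the transcription factor Irf8 were higher in all 4 as well (0.63 ± 0.20 and 0.93 ± 0.36). Without libraries 2 and 4 the log2 fold change of Gbp6 was 0.79, against 1.32 with them, and that of Irf8 0.47. Gbp7 overlapped, at 61.1, 241, 92.8 and 106 CPM after anti-PD-1 and 43.1, 64.0, 60.9 and 53.9 CPM after isotype. Guanylate-binding proteins have close copies, so single members are uncertain.

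Other members of the same list, chosen after their values were seen, overlapped or were lower. Tap1, a subunit of the peptide transporter, was at 201, 514, 112 and 261 CPM after anti-PD-1, against 167, 165, 123 and 135 CPM after isotype; its log2 fold change of 0.88 ± 0.36 was 0.081 without libraries 2 and 4. Psmb10, an immunoproteasome subunit, and Ly6e were lower in all 4 anti-PD-1 libraries (-0.17 ± 0.17 and -0.40 ± 0.19, or -0.080 and -0.20 without libraries 2 and 4). B2m, the light chain of MHC class I, lay between 5601 and 7784 CPM after anti-PD-1 and between 7623 and 8967 CPM after isotype, a log2 fold change of -0.32, or -0.12 without libraries 2 and 4. Without libraries 2 and 4 the median of the interferon gamma list was 0.19.

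**Figure D3:**
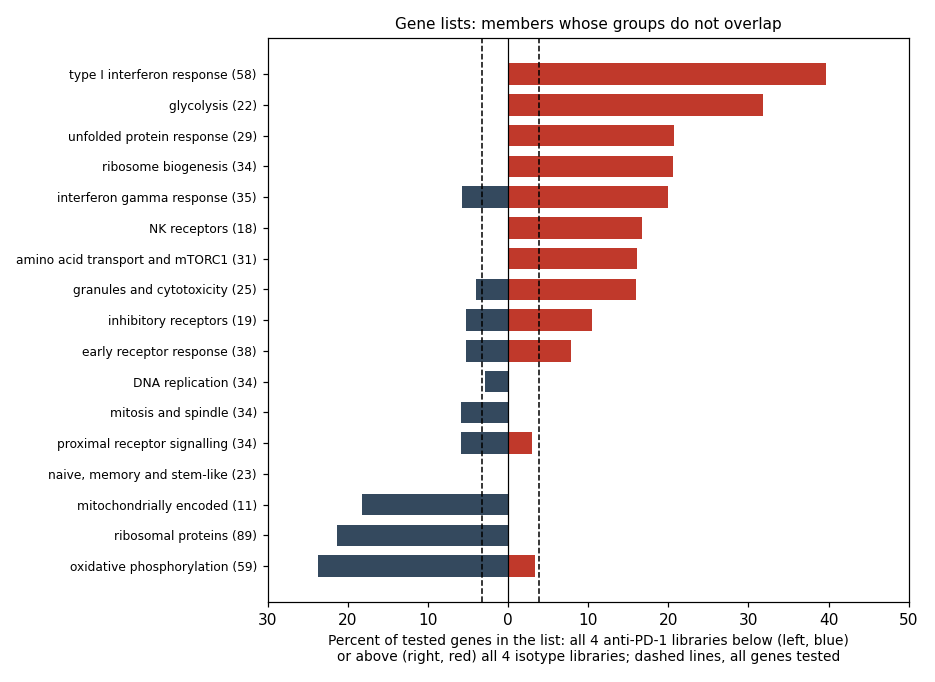
Share of tested genes in each list (number tested in brackets) for which all 4 anti-PD-1 libraries lay above (red, to the right) or below (blue, to the left) all 4 isotype libraries, in percent. Dashed lines are the shares over all genes tested, 3.81% above and 3.26% below; of the lists drawn, type I interferon and glycolysis extend furthest to the right, and oxidative phosphorylation and ribosomal proteins furthest to the left.

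Granule genes included members far apart between the groups. Of 25 tested, 16 had a positive log2 fold change, and 4 (16%) were higher in all 4 libraries, against 3.81% of all genes; 1 (4%) was lower in all 4, near the 3.26% of all genes. The median was 0.094, or -0.087 without libraries 2 and 4 and -0.13 with the number of detected genes as a covariate. Besides Prf1, Gzmb, the main granzyme of effector cells (chr14:56258838-56262260, minus strand), was at 3475, 4153, 3289 and 4223 CPM after anti-PD-1, against 2515, 2288, 1452 and 1285 CPM after isotype (log2 fold change 1.01 ± 0.34; edgeR adjusted p = 0.857, DESeq2 adjusted p = 0.262). Gzmk, a granzyme typical of less differentiated effector cells, ran the other way, at 192, 197, 194 and 112 CPM after anti-PD-1, against 388, 254, 314 and 317 CPM after isotype (-0.87 ± 0.24). Every anti-PD-1 library was above the isotype range for Gzmb and below it for Gzmk. Gzma overlapped, at 91.8, 54.1, 96.2 and 54.0 CPM after anti-PD-1 and 39.6, 61.6, 30.5 and 38.7 CPM after isotype. Serpinb9, the cytosolic inhibitor of granzyme B, was higher in all 4 (0.64 ± 0.35), and Gzmd had 167 counts after anti-PD-1 and none after isotype, at least 45.4-fold higher, within a cluster of near-identical granzymes. On the authors' TPM, Gzmb averaged 6432 after anti-PD-1 and 2821 after isotype.

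Of 24 tested effector cytokines and chemokines, 2 (8.33%) were higher in all 4 anti-PD-1 libraries and 1 (4.17%) lower. Ifng, the signature cytokine of cytotoxic cells, was at 644, 612, 482 and 518 CPM after anti-PD-1, against 314, 432, 388 and 228 CPM after isotype. Ccl3, a chemokine that draws T cells and myeloid cells, was at 2564, 2019, 2158 and 2584 CPM after anti-PD-1, against 1529, 1656, 1347 and 1172 CPM after isotype. Although neither gene overlapped between these groups, their log2 fold changes of 0.73 ± 0.58 and 0.71 ± 0.57 had wide errors in the fit over 12 libraries (adjusted p = 1 for both); with the spread taken from these 8 libraries alone, edgeR's adjusted p was 0.287 for Ifng and 0.243 for Ccl3. Ccl4 overlapped (0.46 ± 0.47). Ccl5, a chemokine stored by memory CD8 cells, was lower in all 4, at 1367, 1093, 1411 and 710 CPM after anti-PD-1, against 2066, 1675, 2389 and 1845 CPM after isotype (-0.80 ± 0.38, and -0.52 without libraries 2 and 4).

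Inhibitory receptors mostly overlapped between the groups, as did most genes tested. Of 19 tested, 13 were positive. In all 4 anti-PD-1 libraries 2 (10.5%) were higher, against 3.81% of all genes, and 1 (5.26%) was lower, against 3.26%. The median of 0.39 became -0.036 without libraries 2 and 4 and -0.072 with the number of detected genes as a covariate. Cd200, an immunoglobulin-family ligand, was at 88.1, 64.9, 70.1 and 78.3 CPM after anti-PD-1, against 22.1, 49.6, 44.4 and 51.5 CPM after isotype. Entpd1, which encodes CD39, an ectonucleotidase of chronically stimulated cells, was at 260, 270, 173 and 230 CPM after anti-PD-1, against 160, 153, 119 and 99.2 CPM after isotype. Both were clear of the isotype range. Ctla4 was lower in all 4, at 103, 125, 126 and 108 CPM after anti-PD-1, against 155, 175, 138 and 141 CPM after isotype, and Tigit overlapped (-0.26 ± 0.19). Lag3 was at 183, 721, 95.7 and 270 CPM after anti-PD-1, against 172, 174, 101 and 124 CPM after isotype, and its log2 fold change of 1.15 ± 0.46 became -0.036 without libraries 2 and 4. Havcr2, which encodes TIM-3, had a similar pattern (0.88 ± 0.36, and 0.30 without them).

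Killer lectin-like receptors, which natural killer cells and effector CD8 cells share, mostly had positive log2 fold changes. Of 23 listed receptor genes 18 were tested, 14 were positive, 3 (16.7%) were higher in all 4 anti-PD-1 libraries and none lower, with a median of 0.64. Klrk1, which encodes the activating receptor NKG2D, was at 669, 950, 756 and 963 CPM after anti-PD-1, against 509, 532, 467 and 516 CPM after isotype (log2 fold change 0.72 ± 0.18). Klre1 was at 61.9, 82.9, 54.3 and 123 CPM after anti-PD-1, against 18.2, 26.9, 45.7 and 22.1 CPM after isotype (1.51 ± 0.36; DESeq2 adjusted p = 0.0394). Klrc1, which encodes NKG2A, was higher in all 4 as well (0.63 ± 0.43), and Fcer1g, a signalling adaptor, overlapped (1.58 ± 0.51). Of 8 markers of natural killer cells 4 were tested, 3 with a positive and 1 with a negative log2 fold change. The list summed to 77.8 to 156 CPM after anti-PD-1 and 54.6 to 89.7 CPM after isotype, a sum that includes Klre1. The defining marker Ncr1 was at 0 in all 8 libraries. Tyrobp averaged 5.26 ± 5.23 CPM after anti-PD-1 and 1.26 ± 1.16 CPM after isotype, and Klrb1c 1.74 ± 2.07 and 0.96 ± 0.82 CPM (SD, n = 4 each). The part of natural killer cells was not tested.

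Of 24 tested transcription factors of effector and exhausted cells, 2 (8.33%) were higher in all 4 anti-PD-1 libraries, against 3.81% of all genes. In all 4, 1 (4.17%) was lower, against 3.26% of all genes. Tbx21, the T-bet gene, was at 42.3, 140, 33.5 and 67.7 CPM after anti-PD-1, against 49.3, 32.3, 9.11 and 18.5 CPM after isotype (log2 fold change 1.38 ± 0.58, and 0.48 without libraries 2 and 4). Batf, an AP-1 partner in activated cells that is counted with the early response genes, was lower in all 4, at 219, 193, 270 and 189 CPM after anti-PD-1, against 322, 330, 296 and 324 CPM after isotype (-0.55 ± 0.17). Eomes, the T-bet relative, was at 14.8, 33.1, 33.3 and 20.7 CPM after anti-PD-1, against 35.3, 34.8, 40.5 and 33.8 CPM after isotype, lower in all 4 with the edges almost touching; its log2 fold change of -0.50 ± 0.41 became 0.16 with detected genes as a covariate. Stat3 was higher in all 4 (0.86 ± 0.30, and 0.35 without libraries 2 and 4), and Stat4, which carries interleukin-12 signals, overlapped on the lower side (-0.47 ± 0.19, and -0.24 without them). The receptor chains Il12rb1 and Il2rb overlapped between groups, and their log2 fold changes of 1.37 ± 0.48 and 0.81 ± 0.38 were 0.37 and -0.042 without libraries 2 and 4.

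Of 23 tested genes of naive, memory and stem-like cells, none was higher or lower in all 4 libraries, and their median was -0.11, or 0.35 without anti-PD-1 libraries 2 and 4. Tcf7, the transcription factor of stem-like cells, was at 19.6, 20.3, 46.6 and 23.3 CPM after anti-PD-1, against 16.7, 19.2, 48.7 and 56.4 CPM after isotype, so levels varied as much within groups as between them. Its log2 fold change was -0.36, or -0.091 without libraries 2 and 4. Slamf6, a marker of the same cells, was at 35.9, 18.0, 97.4 and 46.4 CPM after anti-PD-1, against 102, 76.3, 121 and 146 CPM after isotype (-1.17 ± 0.44, and -0.74 without libraries 2 and 4); anti-PD-1 library 3 overlapped. Cd44, the adhesion receptor of antigen-experienced cells, was at 26.8, 42.2, 44.3 and 57.1 CPM after anti-PD-1, against 55.0, 61.5, 90.9 and 73.0 CPM after isotype. Ccr2, a chemokine receptor, was higher in all 4 (1.05 ± 0.39).

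Genes of the immediate response to the T-cell receptor stayed nearer to the background. Of 38 tested, 3 (7.89%) were higher in all 4 anti-PD-1 libraries, against 3.81% of all genes, and 2 (5.26%) lower, against 3.26%. Their median was 0.11, or 0.037 without libraries 2 and 4 and -0.031 with the length and GC offsets. Myc, which drives growth and ribosome production (chr15:61985391-61990374, plus strand), was at 268, 272, 246 and 309 CPM after anti-PD-1, against 191, 202, 194 and 203 CPM after isotype. The 4 isotype values lay close together and the lowest anti-PD-1 value was above all of them (log2 fold change 0.47 ± 0.16; edgeR adjusted p = 0.857). Ier2 was at 143, 194, 121 and 140 CPM after anti-PD-1, against 98.9, 101, 78.3 and 110 CPM after isotype, and Spry1, a feedback inhibitor of the MAP kinase pathway, was higher in all 4 at lower levels (1.23 ± 0.48). Dusp1, a MAP kinase phosphatase, was lower in all 4, at 140, 243, 169 and 242 CPM after anti-PD-1, against 255, 332, 268 and 273 CPM after isotype. Tnfaip3, the A20 inhibitor of NF-kB, was at 64.2, 91.7, 49.9 and 76.2 CPM after anti-PD-1, against 112, 91.1, 104 and 111 CPM after isotype. Its groups met at anti-PD-1 library 2 and isotype library 2. Without libraries 2 and 4 the log2 fold change of Dusp1 was -0.87, against -0.51 with them, and that of Tnfaip3 was -0.88, against -0.57.

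Of 34 tested genes of proximal receptor signalling 24 were positive, with a median of 0.11, or -0.057 without libraries 2 and 4. In all 4 anti-PD-1 libraries 1 (2.94%) was higher and 2 (5.88%) were lower, near the 3.81% and 3.26% of all genes. Of 7 genes of the CD8 lineage list 6 were negative and 2 (28.6%) were lower in all 4, with a median of -0.25. Members of the receptor complex are given here as levels, chosen after their values were seen. Cd3d was at 1189, 877, 1282 and 934 CPM after anti-PD-1, against 1561, 1564, 1664 and 1413 CPM after isotype (-0.53 ± 0.21), and Cd3e was lower in all 4 too (-0.39 ± 0.19); without libraries 2 and 4 these log2 fold changes were -0.33 and -0.23. Trbc2, a constant region of the beta chain, was at 1152, 622, 1302 and 713 CPM after anti-PD-1, against 1693, 1621, 1632 and 1470 CPM after isotype; its log2 fold change of -0.76 ± 0.21 was -0.39 without libraries 2 and 4, and its reads may be shared with the near-identical other constant region. Cd3g and Cd8b1 overlapped (-0.42 ± 0.24 and -0.25 ± 0.18). Zap70, the kinase that binds the activated complex, had its highest values in libraries 2 and 4, at 206, 442, 153 and 258 CPM after anti-PD-1, against 170, 154, 126 and 166 CPM after isotype (log2 fold change 0.78, and 0.22 without them).

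Nearly every glycolysis gene had a positive log2 fold change. Of 22 tested genes 21 were positive, 7 (31.8%) were higher in all 4 anti-PD-1 libraries and none lower, and the median was 0.44, or 0.18 with detected genes as a covariate. With anti-PD-1 libraries 1 and 3 alone, 10 (45.5%) were above all isotype libraries, against 7.89% of all genes, and the median was 0.30. Summed over the list, levels were 21190, 21700, 17770 and 22850 CPM after anti-PD-1, against 17090, 17210, 15190 and 16110 CPM after isotype. The promoters of a pair of these genes are shown because both genes were higher in all 4 libraries and hold the core of the hypoxia response element; capitals mark every ACGTG on either strand, and CACGTG holds it on both.
Slc16a3, chr11:120948817-120949116, plus strand: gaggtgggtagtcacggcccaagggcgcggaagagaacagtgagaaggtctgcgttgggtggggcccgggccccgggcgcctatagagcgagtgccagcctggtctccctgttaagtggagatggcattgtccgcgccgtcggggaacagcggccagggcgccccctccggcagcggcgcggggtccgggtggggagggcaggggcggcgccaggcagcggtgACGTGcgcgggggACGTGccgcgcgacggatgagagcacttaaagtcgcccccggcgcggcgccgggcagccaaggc
Ldha, chr7:46845554-46845853, plus strand: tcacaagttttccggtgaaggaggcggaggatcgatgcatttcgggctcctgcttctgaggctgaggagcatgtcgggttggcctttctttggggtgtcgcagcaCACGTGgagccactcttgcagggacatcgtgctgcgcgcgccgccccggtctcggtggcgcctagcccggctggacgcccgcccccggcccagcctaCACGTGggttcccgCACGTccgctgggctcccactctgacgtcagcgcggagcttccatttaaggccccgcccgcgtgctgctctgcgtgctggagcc
ACGTG lay in the windows of 14 of the 20 glycolysis genes with one (70%), 29.8% of the 9177 tested genes with one and 21.8% of all 27025. It overlaps the E-box CACGTG, and a match of these letters is a description, not a binding site.

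Slc16a3, which exports lactate, was at 65.7, 171, 60.5 and 74.4 CPM after anti-PD-1, against 33.9, 38.3, 19.8 and 39.1 CPM after isotype (log2 fold change 1.503 ± 0.45, and 0.95 without libraries 2 and 4). Ldha, which makes lactate from pyruvate, was at 4920, 5503, 4066 and 5273 CPM after anti-PD-1, against 3705, 3853, 3289 and 3623 CPM after isotype (0.45 ± 0.16; edgeR adjusted p = 0.865). Both pairs of groups were apart, and for Ldha library 3 was the nearest. Slc2a1, the glucose transporter GLUT1, was at 85.2, 132, 84.3 and 121 CPM after anti-PD-1, against 62.0, 76.0, 58.8 and 59.8 CPM after isotype, though with detected genes as a covariate its log2 fold change of 0.72 ± 0.32 was -0.013. Without libraries 2 and 4 it was 0.40. The enzymes Eno1, Aldoa and Pfkl were higher in all 4 (0.37 ± 0.17, 0.21 ± 0.15 and 0.97 ± 0.45), with Eno1 at 0.24 and Pfkl at 0.34 without libraries 2 and 4. Pfkp, Gpi1 and Pkm overlapped at a single edge, with log2 fold changes of 1.03 ± 0.37, 0.42 ± 0.17 and 0.70 ± 0.29, or 0.45, 0.28 and 0.37 without those libraries. Hif1a, the oxygen-regulated transcription factor, was higher in all 4, at 180, 335, 173 and 219 CPM after anti-PD-1, against 104, 168, 171 and 153 CPM after isotype (log2 fold change 0.60, and 0.24 without libraries 2 and 4). It was the 1 of 17 tested hypoxia-response genes (5.88%) that was higher in all 4, with 1 lower in all 4.

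**Figure D4:**
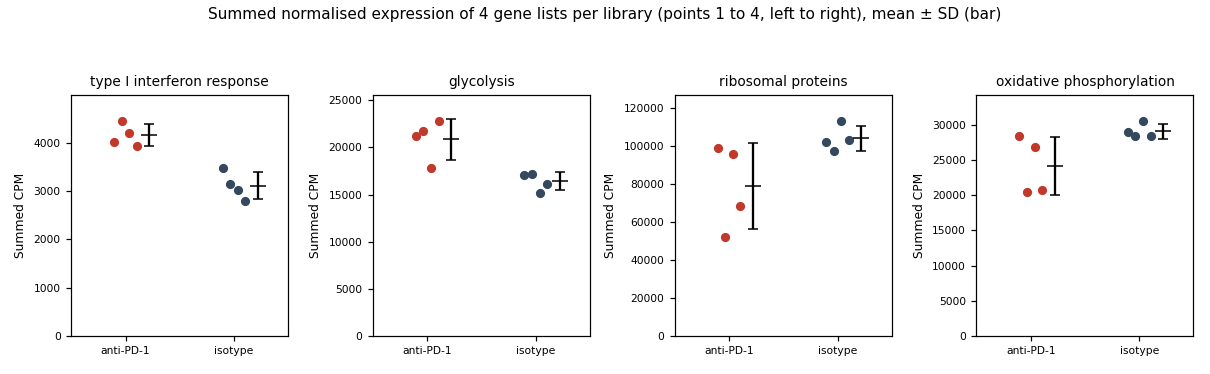
Summed CPM (vertical axes, from 0) of the type I interferon, glycolysis, ribosomal protein and oxidative phosphorylation lists in each anti-PD-1 library (red, left) and isotype library (blue, right), with mean and SD of 4 libraries. The interferon and glycolysis sums of all 4 anti-PD-1 libraries lie above the isotype ones, and the ribosomal protein sums are low in anti-PD-1 libraries 2 and 4.

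Genes of protein folding in the endoplasmic reticulum were partly higher. Of 29 tested genes of the unfolded protein response, 6 (20.7%) were higher in all 4 anti-PD-1 libraries and none lower, with a median of 0.23. Hspa5, the chaperone BiP, was at 1194, 1476, 836 and 1502 CPM after anti-PD-1, against 719, 850, 496 and 784 CPM after isotype (log2 fold change 0.81 ± 0.22, and 0.51 without libraries 2 and 4), with library 3 just under the highest isotype library. Pdia3, a disulfide isomerase, was at 1215, 1208, 1037 and 1331 CPM after anti-PD-1, against 878, 913, 760 and 838 CPM after isotype, and Hsp90b1, Pdia6 and Sdf2l1 were higher in all 4 (0.50 ± 0.16, 0.43 ± 0.18 and 0.53 ± 0.15), with Hsp90b1 at 0.30 without libraries 2 and 4. Of 18 heat shock genes, 3 (16.7%) were higher in all 4, Hspd1, a mitochondrial chaperonin, among them (0.50 ± 0.18).

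Amino acid and one-carbon metabolism gave 5 of 31 genes (16.1%) higher in all 4 libraries and none lower. Shmt1, the cytosolic serine hydroxymethyltransferase, was at 162, 156, 111 and 160 CPM after anti-PD-1, against 88.8, 62.3, 55.7 and 100 CPM after isotype. Its mitochondrial counterpart Shmt2 was at 166, 222, 181 and 252 CPM after anti-PD-1, against 138, 142, 127 and 160 CPM after isotype (log2 fold change 0.54, and 0.29 without libraries 2 and 4). Mthfd2, the next mitochondrial step, and Psat1, a serine synthesis enzyme, were above the isotype range by smaller margins (0.39 ± 0.17 and 0.25 ± 0.15); Mthfd2 was at 0.13 without libraries 2 and 4. Of 27 sterol synthesis genes 2 (7.41%) were higher in all 4: Sqle, the squalene epoxidase, and Srebf2, the transcription factor of the pathway (1.05 ± 0.46 and 0.60 ± 0.27), with Sqle at 0.59 without those libraries. Tubb6, a tubulin of the cytoskeleton, was at 147, 124, 115 and 215 CPM after anti-PD-1, against 78.8, 77.7, 46.0 and 66.7 CPM after isotype.

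Genes of ribosome assembly and of the ribosome's own proteins had medians of opposite sign. Of 34 ribosome biogenesis genes 29 were positive, 7 (20.6%) were higher in all 4 anti-PD-1 libraries and none lower, with a median of 0.35. The median was 0.20 without libraries 2 and 4, and 0.090 with detected genes as a covariate, where 18 were positive and 16 negative. Utp15, a subunit of the small-subunit processome, was at 79.3, 106, 97.9 and 71.6 CPM after anti-PD-1, against 68.7, 49.99, 57.6 and 56.7 CPM after isotype. Rrp9, of the same complex, was at 118, 104, 103 and 122 CPM after anti-PD-1, against 65.5, 85.6, 63.7 and 81.8 CPM after isotype, and Nolc1 and Mybbp1a, both nucleolar, were higher in all 4 (0.54 ± 0.21 and 0.87 ± 0.49), with Nolc1 at 0.33 without libraries 2 and 4. Of 89 ribosomal protein genes 82 were negative, 19 (21.3%) were lower in all 4 libraries, against 3.26% of all genes, and none higher, with a median of -0.43. That median was -0.10 without libraries 2 and 4, while 18 members (20.2%) lay below all isotype libraries in libraries 1 and 3, against 7.45% of all genes. Rpl22l1 was at 155, 69.4, 131 and 65.7 CPM after anti-PD-1, against 175, 163, 222 and 170 CPM after isotype (log2 fold change -0.79, and -0.35 without libraries 2 and 4). Ribosomal protein genes have many processed copies, so single members are uncertain. Their transcripts are short (median 637 bases), and with the length and GC offsets the median log2 fold change was -0.42, with 7 of 89 positive.

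Respiratory chain genes were also mostly negative. Of 59 tested genes of oxidative phosphorylation 52 were negative, 14 (23.7%) were lower in all 4 anti-PD-1 libraries and 2 (3.39%) higher, with a median of -0.38, or -0.10 without libraries 2 and 4 and -0.17 with detected genes as a covariate. Cox4i1, a cytochrome c oxidase subunit, was at 1044, 635, 957 and 774 CPM after anti-PD-1, against 1190, 1124, 1253 and 1223 CPM after isotype (log2 fold change -0.49, and -0.26 without libraries 2 and 4). Atp5l, a small subunit of ATP synthase, was lower in all 4 (-0.76 ± 0.43, and -0.30 without them), and Ndufs1, a large subunit of complex I, was higher in all 4, at 131, 134, 125 and 140 CPM after anti-PD-1, against 114, 114, 120 and 115 CPM after isotype. Of 11 mitochondrially encoded genes 10 were negative and 2 (18.2%) were lower in all 4, mt-Nd4 among them, at 892, 484, 963 and 593 CPM after anti-PD-1, against 1106, 1050, 1375 and 977 CPM after isotype. Their median of -0.53 was -0.15 without libraries 2 and 4 and -0.015 with detected genes as a covariate, where 5 were positive and 6 negative; for mt-Nd4 the log2 fold change of -0.62 was -0.28 and -0.049 in these alternatives.

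Most listed proliferation genes had a positive log2 fold change, and few were apart between the groups, as among all genes. Of 34 DNA replication genes 26 were positive. In all 4 anti-PD-1 libraries 0 were higher, against 3.81% of all genes, and 1 (2.94%) was lower, against 3.26%. Their median was 0.21, or 0.018 without libraries 2 and 4. Of 34 mitosis and spindle genes 22 were positive, 0 were higher in all 4 and 2 (5.88%) were lower, against the same 3.81% and 3.26%. Their median was 0.14, or -0.050 without libraries 2 and 4. Mcm7, a subunit of the replicative helicase, was at 289, 348, 240 and 354 CPM after anti-PD-1, against 246, 222, 154 and 219 CPM after isotype, with library 3 inside the isotype range (log2 fold change 0.55, and 0.33 without libraries 2 and 4). Mcm2, Kif11 and Plk1 were highest in libraries 2 and 4, and their log2 fold changes of 0.90 ± 0.38, 0.89 ± 0.35 and 0.57 ± 0.23 were 0.20, 0.18 and 0.26 without them.

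Immunoglobulin transcripts were lower after anti-PD-1. Igkc was at 17.7, 9.31, 41.4 and 10.2 CPM after anti-PD-1, against 128, 66.4, 70.6 and 52.0 CPM after isotype (-2.01 ± 0.71), and Ighm was lower in all 4 too (-0.61 ± 0.27). The B-cell and plasma-cell markers summed to 172 to 267 CPM after anti-PD-1 and 373 to 431 CPM after isotype, with Ms4a1, a defining marker of B cells, at 0 in all 8 libraries. Haemoglobin transcripts were nearly confined to isotype library 3, where erythroid markers summed to 263 CPM, against 0.667 to 6.84 CPM after anti-PD-1 and at most 0.0804 CPM in the other isotype libraries. Lyz2, a macrophage marker, reached 103 CPM in anti-PD-1 library 4 and at most 8.90 CPM elsewhere. Other macrophage markers were mixed in that library. Fcgr3 (9.64 CPM) and Apoe (4.70 CPM) had their highest values there, while C1qa (0.18 CPM) and Csf1r (0.12 CPM) were near 0. The part of macrophages in that library was not tested.

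Whether the anti-PD-1 difference in CD8 cells departs from that in Treg cells was tested as an interaction over all 24 libraries. For reference, the comparison within Treg cells gave 3 of 12981 genes at an adjusted p under 0.05 (0.0231%). No gene passed in the interaction with edgeR (0% of 14591; smallest adjusted p = 0.0764; 912 genes, 6.25%, at an unadjusted p under 0.05). DESeq2 called 201, and edgeR called 5, 1, 12 and 2 when isotype Treg library 1, 2 or 4 or anti-PD-1 Treg library 1 was left out. Nfil3 had a log2 fold change of 1.11 ± 0.21 in CD8 cells and 0.25 ± 0.28 in Treg cells, a difference of 0.83 ± 0.34 (adjusted p = 0.693). Cd7 was at -1.62 ± 0.38 in CD8 cells and -1.70 ± 0.40 in Treg cells, and Prf1 at 1.75 ± 0.36 and 2.73 ± 0.71 (adjusted p = 1 for both differences). For Usp18 the difference was 1.11 ± 0.48 (adjusted p = 0.730), from 1.64 ± 0.36 in CD8 cells and 0.50 ± 0.31 in Treg cells.

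Anti-JAML libraries of CD8 cells, set against the same isotype libraries and so not independent, gave other values for several of these genes. Anti-JAML libraries 2 and 4, which enter each anti-JAML mean, stood far from the other CD8 libraries on principal components, the main axes of variation. Library 4 was at 134.6 on the first and library 2 at -104.7 on the second. Library 4 also had 6.89% mitochondrially encoded counts and 13257 genes with a count. Nfil3 averaged 81.2 ± 9.34 CPM after anti-PD-1, 22.9 ± 4.50 CPM after anti-JAML and 37.7 ± 2.67 CPM after isotype (SD, n = 4 each). Gzmb averaged 3785 ± 472 CPM after anti-PD-1, 1011 ± 526 CPM after anti-JAML and 1885 ± 608 CPM after isotype. Irf7 averaged 107 ± 7.40 CPM after anti-PD-1, 88.3 ± 22.5 CPM after anti-JAML and 54.4 ± 8.48 CPM after isotype. Jaml averaged 46.2 ± 16.3 CPM after anti-PD-1, 32.7 ± 23.9 CPM after anti-JAML and 10.4 ± 6.99 CPM after isotype. Nfil3 and Gzmb were thus above the isotype mean after anti-PD-1 and below it after anti-JAML, while Irf7 and Jaml were above it after both.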

How the data were processed

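RNA was measured in CD8 cells after anti-PD-1 or isotype, 4 libraries each, grouped by the labels alone. The authors deposited counts, whole reads per gene without normalization, and a table of TPM, read only as group means. The submitters' processing notes name mm10 and STAR 2.7.3a beside fastp 0.20.1, deepTools 3.3.1 and SAMtools; how reads were counted, and with which strand setting and annotation, is not stated, so overlapping and duplicated genes are uncertain. Of the table's IDs 98.64% match GENCODE M21, which gave positions.

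Counts were tested in R 4.3.3 with edgeR 4.0.16 (quasi-likelihood F test, robust, TMM, filterByExpr with minimum count 10 and total 15) on all 12 CD8 libraries, and with 24 for the interaction. P-values are two-sided, with Benjamini-Hochberg adjustment over all genes tested and a threshold of 0.05; ± after a log2 fold change is its SE. Alternatives were DESeq2 1.42.0, limma 3.58.1 voom, RLE, other filters, 8 libraries only, no anti-JAML libraries 2 and 4, a replicate block, detected genes as covariate, each library left out and, added after seeing the data, length and GC offsets and no anti-PD-1 libraries 2 and 4. Fits were tested on simulated data.

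Members and lists were chosen with earlier results of these data known. Genes named are Jaml, Pdcd1, those called by any tool, the 15 smallest p in each direction at 5 CPM or more (predicted genes left out), and up to 4 members of each list by p; list members whose groups do not overlap, and other members and cell markers given as levels, were added after their values were seen, and some were left out for length or are not reported here. Intervals, floors and bounds cover counting error only, since amplified reads are not independent molecules.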

Additional observations from a re-analysis of the deposited data

Results flagged for a closer look

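Within a group of 4 libraries, a library was looked at again where its gap to the nearest other library, as a share of the group's range, exceeded Dixon's 95% critical value, which chance gives in about 1 of 20 groups; 12 of 288 groups of values did so. In anti-PD-1 libraries these were library 2 for Cwc22 (51.8 CPM), Slc16a3 (171 CPM), Ccr2 (45.8 CPM) and Mybbp1a (91.6 CPM), each the highest of its group. Library 3 was lowest for Shmt1 (111 CPM) and highest for Tcf7 (46.6 CPM), and library 4 was lowest for Gzmk (112 CPM). In isotype libraries they were library 3 for Jaml (20.8 CPM) and Snapc5 (116 CPM), library 2 for Hspd1 (346 CPM), and library 1 for Rsad2 (9.55 CPM) and Cd3e (965 CPM), each the highest of its group.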

How the results depend on the processing

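The count of 0 genes called by edgeR for anti-PD-1 against isotype in CD8 cells stayed 0 under every alternative except DESeq2, which called 22, and leaving out any of the 8 libraries gave 0 to 0. At an unadjusted p under 0.05 the 514 higher and 196 lower genes became 1086 and 656 without anti-JAML libraries 2 and 4, 768 and 534 with the 8 libraries alone, 1008 and 646 with no filter on low counts, 308 and 326 with detected genes as a covariate, and 202 and 113 without anti-PD-1 libraries 2 and 4; leaving out anti-PD-1 library 2 alone gave 308 higher. The cause of these shifts was not tested. For the difference between CD8 and Treg cells, DESeq2 called 201 genes, and leaving out 1 library gave 0 to 12 (5, 1 and 12 without isotype Treg libraries 1, 2 and 4, and 2 without anti-PD-1 Treg library 1).

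The type I interferon median (0.81) ranged from 0.71 to 0.87 over its alternatives. The glycolysis median was 0.18 with detected genes as a covariate, and without anti-PD-1 libraries 2 and 4 the interferon gamma median was 0.19 and the ribosomal protein median -0.10. With the covariate the sign turned for the medians of the apoptosis (0.068), inhibitory receptor (-0.072), granule (-0.13), cytokine receptor (-0.16), tissue residency (-0.21), tubulin (-0.16) and circadian clock (-0.022) lists, and for Pdcd1 (-0.44), Eomes (0.16) and Slc2a1 (-0.013). Without anti-PD-1 libraries 2 and 4 it turned for the inhibitory receptor (-0.036), granule (-0.087), naive and memory (0.35), mitosis (-0.050), proximal signalling (-0.057), proteasome (0.033), cytokine receptor (-0.061), tissue residency (-0.083), interferon receptor (-0.042), NF-kB target (-0.034), sterol synthesis (-0.026) and trafficking (0.022) lists, and for Pdcd1 (-0.20), Lag3 (-0.036) and Il2rb (-0.042). With length and GC offsets it turned for the early receptor response (-0.031), cytokine receptor (-0.093), interferon receptor (-0.12), NF-kB target (-0.059) and circadian clock (-0.050) lists; the interferon gamma median was 0.39 there. Leaving out a single library turned the naive and memory median (-0.11 with all) to values up to 0.29 (without isotype library 4), and other settings also turned medians near 0, among them those of the effector cytokine, trafficking and tissue residency lists. Cd8a, near 0, ranged from -0.11 to 0.00061 as libraries were left out.

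With the replicate number as a block, edgeR called 0 genes in the CD8 comparison and 0 in the interaction. At an unadjusted p under 0.05 the block gave 601 higher and 303 lower genes in the CD8 comparison. Same-numbered libraries of the 2 groups correlated in their deviations at -0.017, 0.13, 0.14 and 0.0031 over 8593 genes. Anti-PD-1 libraries 2 and 3 correlated best with their own number. Library 1 correlated best with isotype library 3 (0.070) and library 4 with isotype library 2 (0.049). Whether the numbers pair the libraries was thus not settled, and the main fit did not pair them. Depth does not limit well-expressed genes, while genes with 0 counts in a group allow only bounds.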
